A study of Mus musculus with 12 samples.

Results

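Slitrk1 to Slitrk6 were examined as a family in sorted spiral ganglion neurons, whose axons link the hair cells of the cochlea to the brainstem. The 6 genes were taken by symbol from the 25674 Ensembl identifiers of the count table, and all 6 were found and passed the filter on low counts. SLITRK proteins are single-pass transmembrane proteins with leucine-rich repeats outside the cell, like those of the secreted guidance protein SLIT, and a cytoplasmic part that in some members resembles the tail of the Trk neurotrophin receptors. On neurons they bind LAR-type receptor tyrosine phosphatases on the facing axon and promote the formation of synapses, and they also affect the growth of neurites. In the inner ear, loss of Slitrk6 is known to impair cochlear innervation in mice, and mutations of the human gene cause deafness.

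The study had 12 libraries, 6 labelled ISL1CKO and 6 controls, each made from 100 tdTomato-positive cells sorted from the left and right spiral ganglia of an individual mouse embryo at stage E14.5 of embryonic development. Controls carried Neurod1Cre and Rosa26tdTOM, and the embryos labelled ISL1CKO carried Neurod1Cre, Isl1loxP/loxP and Rosa26tdTOM, so Cre recombinase and the red reporter were shared by both groups. Neurod1Cre is a BAC transgene that acts wherever Neurod1 is transcribed, and ISL1 is a LIM homeodomain transcription factor of sensory neurons. The mice had a mixed C57BL/6/sv129 background, embryos of either sex came from 4 litters, and the litter of each library was not given. A label tag calls the numbered libraries technical replicates, whereas the design text calls them biological, so p-values measure the spread between these libraries, which may in part be technical.

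Libraries held 11895603 to 13857480 counts. A floor of 3 counts corresponded to 0.216 to 0.252 CPM (counts scaled to a common library size), which covers counting error only because amplified reads without molecular identifiers are not independent molecules. Isl1 itself was counted at 1386 ± 184 CPM in the libraries labelled ISL1CKO and 1533 ± 216 CPM in controls (mean ± SD, 6 libraries each; edgeR adjusted p = 0.460). Counts over the whole gene cannot show whether its floxed part was removed, so the genotype rests on the labels. The neuronal marker Tubb3 was abundant in both groups, averaging 3927 CPM in libraries labelled ISL1CKO and 3200 CPM in controls. Libraries ISL1CKO 2, 3 and 5 held transcripts of both sexes, with Xist at 62.7, 77.6 and 132 CPM and the Y-linked gene Ddx3y at 44.4, 95.6 and 49.4 CPM, which goes against 1 embryo per library. Calls of the SLITRK genes and of the related genes are therefore also given without them, and other genes named below are given over all libraries only.

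Of the 6 SLITRK genes, Slitrk1 and Slitrk3 fell in the libraries labelled ISL1CKO, by 2.99-fold and 3.20-fold on the fitted scale, and the remaining 4 did not pass the test. These were the 2 most abundant members in controls per length of exon. A call means a Benjamini-Hochberg adjusted p under 0.05 over all genes, from the quasi-likelihood test of edgeR. The 2 called members compare with a background of 10.2% of the 14813 genes tested that were called in either direction, with 5.19% called lower and 5.01% called higher. The median log2 ratio of ISL1CKO over control (the fitted log2 fold change) was 0.24 over the 6 members and 0.0045 over all genes tested. In bulk RNA, fewer cells of a type and less RNA per cell cannot be told apart.

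Slitrk3, whose protein promotes inhibitory synapses through the phosphatase PTPδ in the brain, lies on chromosome 3 at 73047265 to 73057803, minus strand (ENSMUSG00000048304, GRCm38). Its level in control libraries 1 to 6 was 88.8, 45.6, 52.4, 60.2, 47.9 and 87.2 CPM. In the libraries labelled ISL1CKO 1 to 6 it was 30.5, 9.82, 23.6, 17.1, 17.8 and 20.5 CPM. All 6 libraries labelled ISL1CKO lay below all 6 controls, which was true of 3.67% of the genes tested. The means were 19.9 ± 6.92 and 63.7 ± 19.5 CPM (SD, 6 libraries), giving a log2 ratio of -1.68 ± 0.25 (SE) (edgeR adjusted p = 4.79e-04). Without libraries ISL1CKO 2, 3 and 5 the log2 ratio was -1.49 (edgeR adjusted p = 0.0112), in a fit that called 4.73% of its 16222 genes, and 2.47% lower.

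Slitrk1, whose human counterpart has been studied in Tourette syndrome and whose protein promotes excitatory synapses and neurite outgrowth, lies on chromosome 14 at 108908800 to 108914158, minus strand (ENSMUSG00000075478). Control libraries 1 to 6 held 41.5, 55.6, 24.9, 64.4, 42.2 and 76.2 CPM, and the libraries labelled ISL1CKO 1 to 6 held 25.3, 21.6, 12.8, 18.7, 16.2 and 7.37 CPM. The groups overlapped only in that ISL1CKO 1 lay just above control 3. The means were 17.0 ± 6.37 and 50.8 ± 18.3 CPM (SD, 6 libraries), giving a log2 ratio of -1.58 ± 0.30 (SE) (edgeR adjusted p = 0.00268). Its call was lost without libraries ISL1CKO 2, 3 and 5 at nearly the same size of fall, with a log2 ratio of -1.58 and a standard error of 0.41 (edgeR adjusted p = 0.0540).

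**Figure D1:**
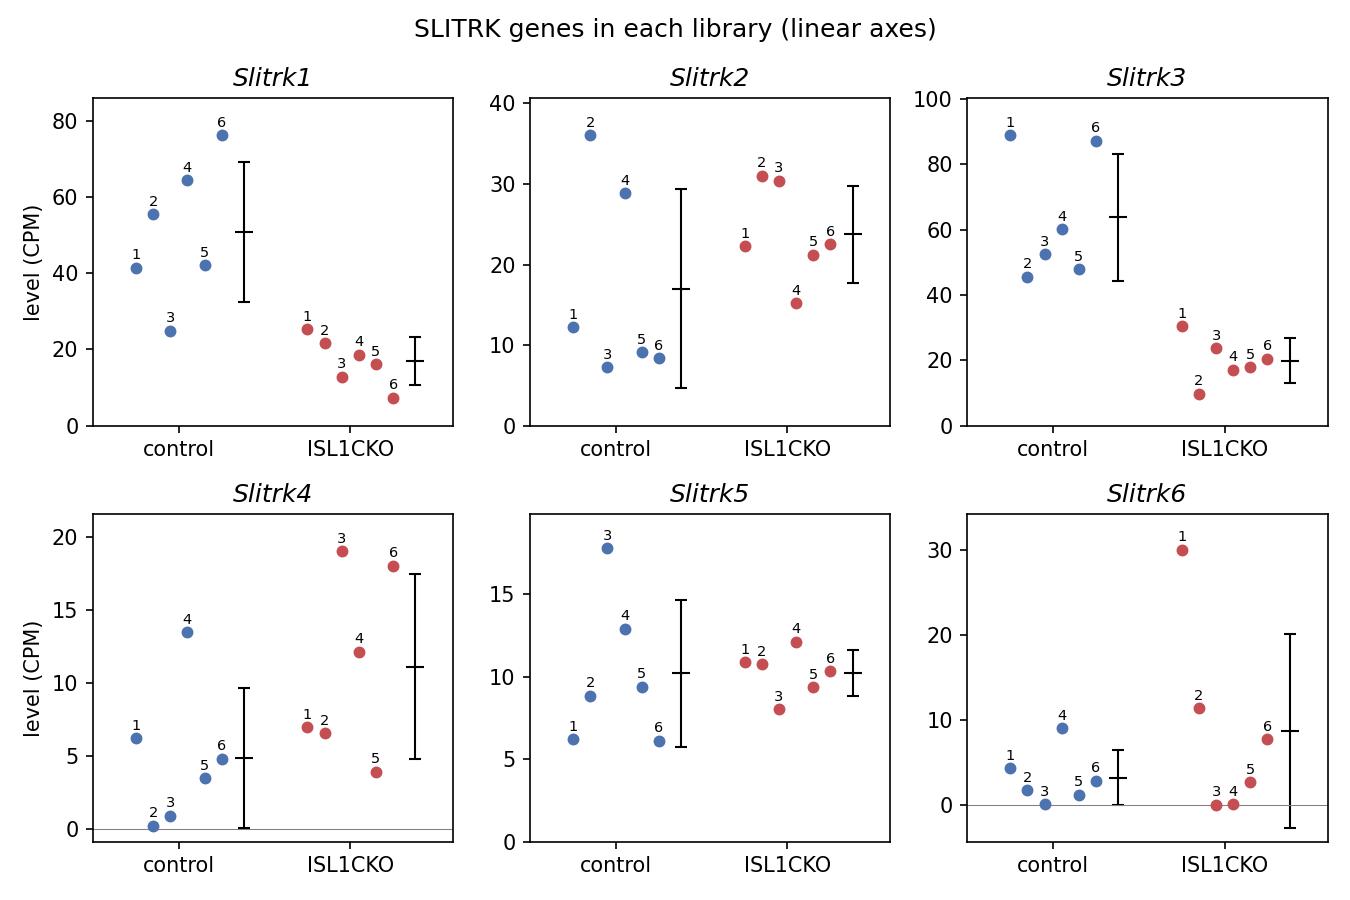
Level of each SLITRK gene in CPM (vertical axes, linear, 1 scale per panel) in the 6 control libraries (blue) and the 6 libraries labelled ISL1CKO (red). Points are libraries with their replicate number, and the black bar is the mean with its SD. For Slitrk3 the groups do not overlap, for Slitrk1 only ISL1CKO 1 and control 3 cross, and Slitrk6 runs from 0.0750 to 30.1 CPM within the libraries labelled ISL1CKO.

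The windows upstream of the start sites of Slitrk1 and Slitrk3 are shown because these were the members that fell. Each is the 250 bases before the RefSeq start (GRCm38.p6), printed 5′ to 3′ on the gene's strand, with the homeodomain core TAAT on either strand in capitals. The Slitrk1 window is chr14:108914240-108914489, minus strand. The Slitrk3 window is chr3:73057067-73057316, minus strand, upstream of the shorter GENCODE transcript and inside the first intron of the longer transcript, which starts at 73057803.
Slitrk1: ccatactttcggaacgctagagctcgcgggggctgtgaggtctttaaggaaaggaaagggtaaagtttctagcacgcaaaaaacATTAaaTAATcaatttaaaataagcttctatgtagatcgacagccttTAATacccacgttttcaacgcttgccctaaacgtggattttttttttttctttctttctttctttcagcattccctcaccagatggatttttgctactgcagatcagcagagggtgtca
Slitrk3: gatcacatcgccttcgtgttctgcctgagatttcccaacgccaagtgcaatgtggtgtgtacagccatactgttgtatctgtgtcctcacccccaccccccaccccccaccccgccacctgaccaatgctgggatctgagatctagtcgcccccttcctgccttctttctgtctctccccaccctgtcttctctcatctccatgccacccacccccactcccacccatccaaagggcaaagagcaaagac
The Slitrk1 window held 3 matches to TAAT and the Slitrk3 window held 0, while 54.9% of the 32851 RefSeq windows of this length held at least 1. The E-box CANNTG, searched on both strands and not overlapping these matches, occurred 1 time in the Slitrk1 window and 2 times in that of Slitrk3, and in 66.2% of all windows. The longer sequence CTAATG, which contains TAAT, occurred in neither, and in 6.36% of all windows. The base composition of these windows also differed, with 40.4% G and C upstream of Slitrk1 and 57.6% upstream of Slitrk3. These matches describe letters in the windows and not binding, and the count of TAAT differed between the 2 genes that fell. Of the members not called, the Slitrk6 window also held 3 matches to TAAT. The 2 Slitrk2 windows held 0 and 1, and the Slitrk5 window held 0. For Slitrk4, also not called, the set of windows used here had no entry.

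Slitrk6, the member known for its part in inner ear innervation, had the widest spread of the 6 among the libraries labelled ISL1CKO, while Slitrk4 had a slightly wider one in controls. It lies on chromosome 14 at 110748580 to 110755149, minus strand (ENSMUSG00000045871). Its level in libraries labelled ISL1CKO 1 to 6 was 30.1, 11.4, 0.0750, 0.149, 2.76 and 7.82 CPM, and in controls 1 to 6 it was 4.39, 1.77, 0.166, 9.08, 1.26 and 2.92 CPM. Libraries ISL1CKO 3, ISL1CKO 4 and control 3 held 1, 2 and 2 counts, at or under the floor, while ISL1CKO 1 held 381. The means of 8.72 ± 11.4 and 3.27 ± 3.20 CPM (SD, 6 libraries) gave a log2 ratio of 1.41 ± 1.03 (SE) with a 95% interval from -0.79 to 3.62 (edgeR adjusted p = 0.454). A difference of either sign thus lay within the interval. Without ISL1CKO 1 the log2 ratio was 0.44 (edgeR adjusted p = 0.853), and with limma-voom and all libraries it was 0.19.

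Markers of the otic epithelium, in which Slitrk6 is also expressed, ranged from near the floor to well above it. Epcam averaged 0.818 and 0.958 CPM in libraries labelled ISL1CKO and controls, and Oc90 averaged 0.280 and 0.0791 CPM. All 12 listed markers of otic epithelium and supporting cells were in the table, and their summed level was 127 to 237 CPM in the libraries labelled ISL1CKO and 758 to 1069 CPM in controls. Most of that sum was Fgf10, which spiral ganglion neurons also express, at 143 and 871 CPM, and it was the 1 marker of the 6 tested that was called. Jag1 averaged 15.4 CPM in libraries labelled ISL1CKO, with a log2 ratio of 0.09 (edgeR adjusted p = 0.918). Fbxo2 averaged 10.4 ± 8.38 and 3.43 ± 0.896 CPM (SD, 6 libraries), a difference that did not pass (edgeR adjusted p = 0.0691). It was highest in ISL1CKO 1, 2 and 5, at 18.1, 21.3 and 13.9 CPM, and the first 2 of these also held the most Slitrk6. Other markers were mixed in this. Among libraries labelled ISL1CKO, Sox2 was also highest in ISL1CKO 2 and 1, at 3.95 and 1.66 CPM. Within the same group Tecta was highest in ISL1CKO 1 and 5, at 4.97 and 4.94 CPM. Tecta was also at 3.60 CPM in ISL1CKO 3, where Slitrk6 was at 0.0750 CPM. Epcam was lowest of that group in ISL1CKO 1, at 0.158 CPM or 2 counts. Oc90 was at 0.710 CPM in ISL1CKO 1 and highest in ISL1CKO 4, at 0.967 CPM, where Slitrk6 was at 0.149 CPM. After centring on the group means, Slitrk6 and the summed otic epithelium markers had r = 0.69 and rho = 0.56 over the 12 libraries. This was the highest r of Slitrk6 with any of the 9 marker lists. Since Fgf10 made most of that sum, this r cannot tell otic epithelial cells from neurons. These values are a description over libraries of shared preparation, and the part of otic epithelial cells in the Slitrk6 levels was not tested.

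Slitrk4 and Slitrk2 are X-linked. Slitrk4 lies on chromosome X at 64264885 to 64276996, minus strand (ENSMUSG00000046699), and is one of the less studied members. It was at 6.95, 6.58, 19.0, 12.1, 3.93 and 18.0 CPM in libraries labelled ISL1CKO 1 to 6 and at 6.21, 0.221, 0.914, 13.4, 3.48 and 4.82 CPM in controls 1 to 6. Control 2 held only 3 counts, and 5 of the 6 libraries labelled ISL1CKO lay above 5 of the 6 controls, yet control 4 reached into their upper range. The log2 ratio was 1.19 ± 0.68 (SE) with a 95% interval from -0.25 to 2.64 (edgeR adjusted p = 0.316).

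Slitrk2, which acts at excitatory synapses and whose human counterpart is linked to a neurodevelopmental disorder, lies on chromosome X at 66649318 to 66661393, plus strand (ENSMUSG00000036790). The libraries labelled ISL1CKO 1 to 6 held 22.3, 31.0, 30.4, 15.2, 21.2 and 22.6 CPM. Controls 1 to 6 held 12.3, 36.1, 7.23, 28.9, 9.09 and 8.40 CPM and were highest in libraries 2 and 4. The log2 ratio was 0.48 ± 0.38 (SE) with a 95% interval from -0.33 to 1.30 (edgeR adjusted p = 0.497). It was 0.84 without control 2 (edgeR adjusted p = 0.153). Xist was high in 2 controls, at 397 CPM in control 3 and 271 CPM in control 4, and both X-linked members were low in the former and high in the latter. With Y-linked expression as a covariate the log2 ratios were 0.49 for Slitrk2 and 1.31 for Slitrk4 (edgeR adjusted p of 0.522 and 0.281).

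Slitrk5, whose protein associates with the BDNF receptor TrkB and whose loss in mice leads to compulsive grooming, differed least. It lies on chromosome 14 at 111675097 to 111683141, plus strand (ENSMUSG00000033214). Its level in libraries labelled ISL1CKO 1 to 6 was 10.9, 10.8, 8.03, 12.1, 9.38 and 10.3 CPM, and in controls 1 to 6 it was 6.21, 8.85, 17.8, 12.9, 9.41 and 6.13 CPM. Both groups had nearly equal means, 10.3 ± 1.41 and 10.2 ± 4.47 CPM (SD, 6 libraries), with a log2 ratio of 0.0052 and a 95% interval from -0.58 to 0.59 (edgeR adjusted p = 0.993). Changes beyond about 1.5-fold in either direction lay outside that interval.

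Slitrk1, Slitrk6 and Slitrk5 are consecutive protein-coding genes on chromosome 14 in the annotation, with 1834422 bases between Slitrk1 and Slitrk6 and 919948 bases between Slitrk6 and Slitrk5. Only Slitrk1 of these was called, and the test did not compare the neighbours with each other. The protein-coding neighbour of Slitrk1 on its other side, Trim52, was at no more than 0.218 CPM in any library. Beside Slitrk3, the sucrase gene Sis was at no more than 1.19 CPM in any library, and the cholinesterase gene Bche had a log2 ratio of -0.38 (edgeR adjusted p = 0.766). Every member has its whole coding sequence in a single exon and overlaps 0 other annotated genes. The longest run of bases shared by transcripts of any 2 members was 22, shorter than the 75 sequencing cycles.

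Per kilobase of exon, the order of the members in controls was Slitrk3 at 13.1 ± 4.02, Slitrk1 at 9.48 ± 3.42, Slitrk2 at 2.10 ± 1.53, Slitrk5 at 1.94 ± 0.849, Slitrk6 at 0.770 ± 0.754 and Slitrk4 at 0.554 ± 0.547 CPM per kb (SD, 6 libraries). The neighbours in each of the pairs Slitrk3 and Slitrk1, Slitrk2 and Slitrk5, and Slitrk6 and Slitrk4 lay within their spreads. By coding length alone, a choice made after seeing the data, Slitrk1 stood above Slitrk3 in controls, at 24.3 against 21.7 CPM per kb of coding sequence. In the libraries labelled ISL1CKO the levels were closer together, with Slitrk3 at 4.10 ± 1.43, Slitrk1 at 3.17 ± 1.19, Slitrk2 at 2.94 ± 0.744, Slitrk6 at 2.06 ± 2.68, Slitrk5 at 1.95 ± 0.267 and Slitrk4 at 1.27 ± 0.723 CPM per kb (SD, 6 libraries). Each neighbour in that order lay within the larger of the 2 spreads.

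The make-up of the family differed accordingly. Slitrk1 and Slitrk3 together made 71.6% to 90.3% of the summed SLITRK level per kilobase in controls, with a mean of 80.5% ± 7.01, and 39.3% to 55.6% in the libraries labelled ISL1CKO, with a mean of 47.5% ± 7.18 (SD, 6 libraries). These ranges did not overlap. The summed level was 19.9 to 35.6 CPM per kb in controls and 12.2 to 23.7 CPM per kb in the libraries labelled ISL1CKO, and here ISL1CKO 1 crossed controls 3 and 5. Slitrk3 was the highest member in 5 controls and 4 libraries labelled ISL1CKO, Slitrk1 in 1 library of each group, and Slitrk6 in ISL1CKO 1 alone. No test is given for these shares, since they restate the levels of the members.

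**Figure D2:**
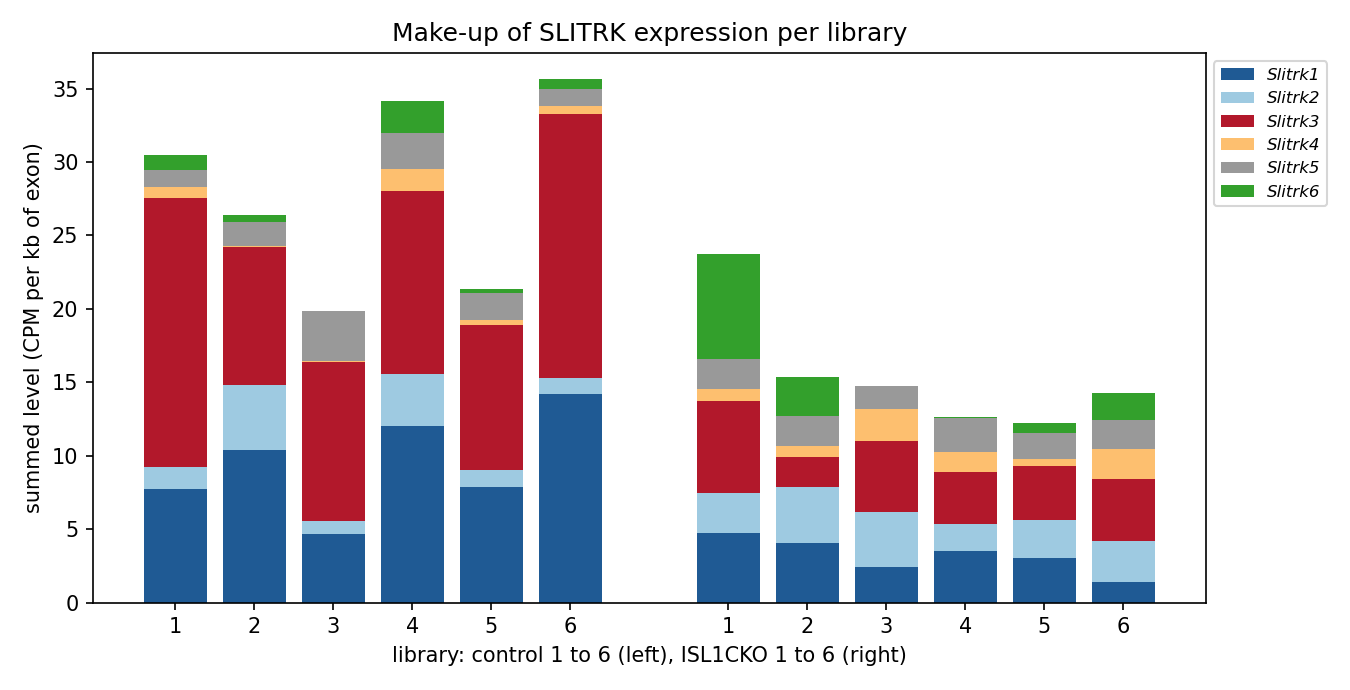
Summed level of the SLITRK genes per library in CPM per kb of exon (vertical axis, from 0), with each member as a coloured segment, for control libraries 1 to 6 (left) and libraries labelled ISL1CKO 1 to 6 (right). The Slitrk1 and Slitrk3 segments make 71.6% to 90.3% of the control bars and 39.3% to 55.6% of the others, and the Slitrk6 segment is tall only in ISL1CKO 1.

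The LAR-type receptor phosphatases, the partners that SLITRK proteins bind across the synaptic cleft, are encoded by Ptprd, Ptprf and Ptprs, and all 3 were called. Ptprd, the gene of PTPδ, was at 59.8, 50.4, 69.0, 50.0, 50.5 and 58.6 CPM in libraries labelled ISL1CKO 1 to 6 and at 16.3, 17.5, 35.7, 44.8, 27.5 and 19.9 CPM in controls 1 to 6. The groups did not overlap, as for 6.78% of all genes tested, and the log2 ratio was 1.06 ± 0.23 (SE) (edgeR adjusted p = 0.00759). Ptprs, the gene of PTPσ, also rose, from 259 ± 32.2 to 393 ± 86.1 CPM (SD, 6 libraries), a log2 ratio of 0.60 (edgeR adjusted p = 0.00943), with ISL1CKO 3 at 265 CPM inside the control range of 218 to 309 CPM. Ptprf, the gene of LAR itself, fell from 241 ± 46.7 to 163 ± 27.0 CPM (SD, 6 libraries), a log2 ratio of -0.56 (edgeR adjusted p = 0.0140), and overlapped only through ISL1CKO 6. Without libraries ISL1CKO 2, 3 and 5 the calls of Ptprd and Ptprf were lost (edgeR adjusted p of 0.0738 and 0.175) and that of Ptprs remained (edgeR adjusted p = 0.0122).

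Inside the axon these phosphatases bind liprins and other scaffold proteins. Of 9 such partners, 8 were tested and 0 passed the adjusted threshold over all 12 libraries in edgeR as reported, DESeq2 or limma-voom. The liprin genes Ppfia2 and Ppfia4 were the 2 with an unadjusted p under 0.05 in edgeR (p of 0.0184 and 0.0339, a quasi-likelihood fit across all genes), with log2 ratios of 0.41 and 0.83 (edgeR adjusted p of 0.116 and 0.170). Ppfia2 passed without control 3 (edgeR adjusted p = 0.0407), and Ppfia4 passed without ISL1CKO 2, 3 and 5 (edgeR adjusted p = 0.0340). Of the 6 listed genes of other postsynaptic ligands of these phosphatases, 5 were tested and 2 were called. Il1rapl1, whose product is a relative of the interleukin receptor accessory protein and binds PTPδ, rose from 2.96 ± 2.33 to 25.2 ± 6.93 CPM (SD, 6 libraries) without overlap. Its log2 ratio was 3.09 (edgeR adjusted p = 0.00102). Ntrk3, whose product TrkC binds PTPσ besides neurotrophin-3, fell by 1.40 on the log2 scale (edgeR adjusted p = 3.97e-05).

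**Figure D3:**
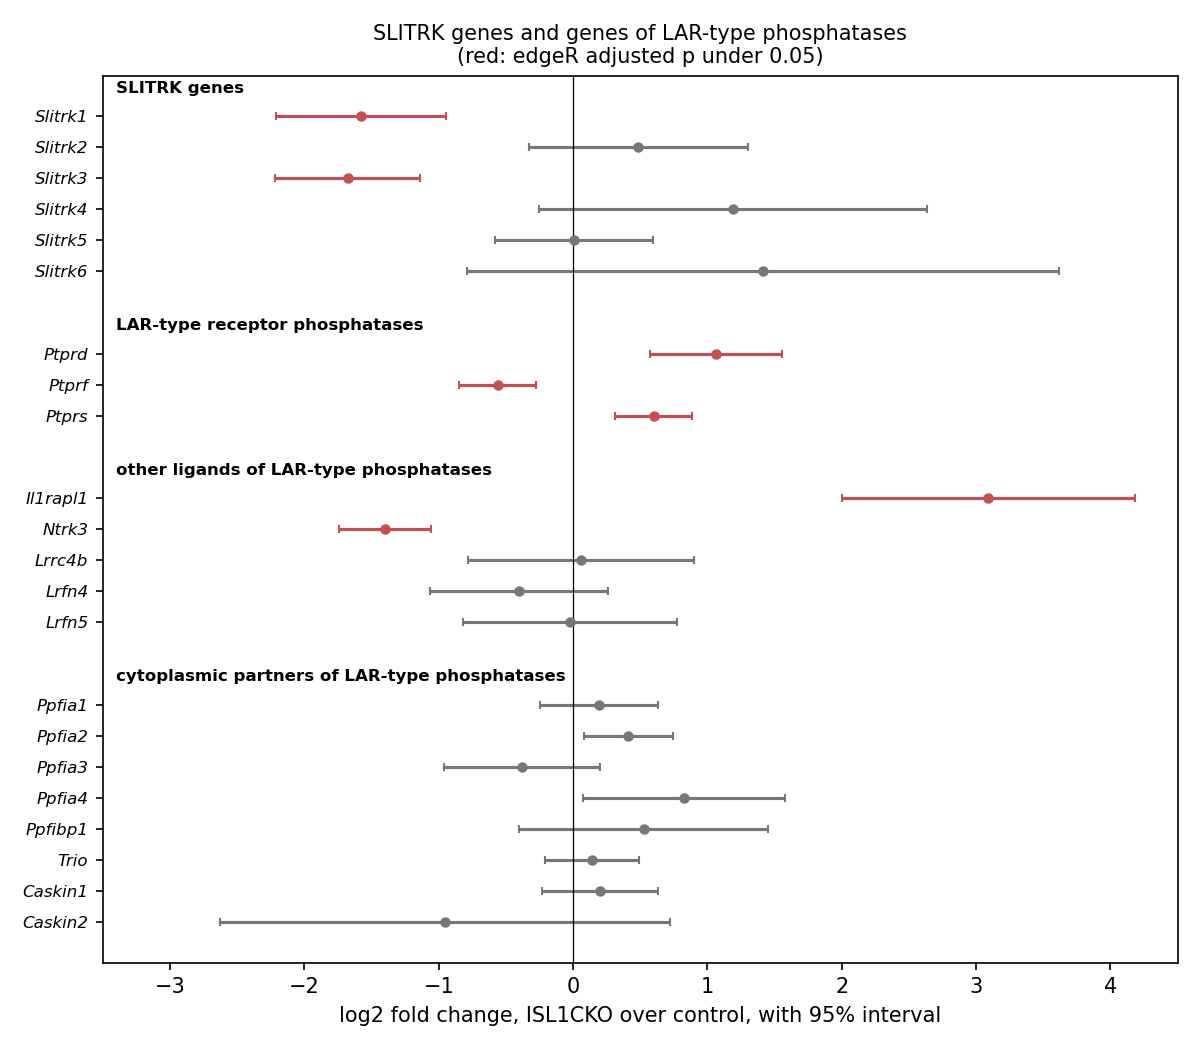
Log2 ratio of libraries labelled ISL1CKO over controls (horizontal axis) with its 95% interval for the 6 SLITRK genes and the tested genes of LAR-type phosphatases, their other ligands and their cytoplasmic partners. Red marks an edgeR adjusted p under 0.05. Slitrk1 and Slitrk3 lie at -1.58 and -1.68, Ptprd and Ptprs at 1.06 and 0.60, Ptprf at -0.56, and 0 of the 8 cytoplasmic partners are red.

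Among 31 other neuronal membrane proteins with leucine-rich repeats, 29 were in the table and 26 were tested, of which 5 were called higher and 1 lower. Flrt3, a ligand of latrophilins and UNC5 receptors, rose from 9.56 ± 6.03 to 147 ± 35.2 CPM (SD, 6 libraries), a log2 ratio of 3.94 (edgeR adjusted p = 2.20e-06). Lingo2 rose from 14.8 ± 6.61 to 197 ± 54.0 CPM, Lrrn1 from 29.5 ± 8.90 to 188 ± 46.1 CPM, and Lrrc4c, the netrin-G1 ligand, from 26.1 ± 11.3 to 112 ± 38.3 CPM (SD, 6 libraries). Flrt1 rose by less, with a log2 ratio of 1.34 (edgeR adjusted p = 0.00350). For these 5 genes the groups did not overlap. The 1 called lower was Lrrn3, whose log2 ratio of -0.48 (edgeR adjusted p = 0.0444) was not past the threshold in 14 of the 23 other settings.

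The median log2 ratio of the 26 genes was -0.11, and LRRTM genes, whose products bind neurexins, had values from -0.86 to -0.09 in edgeR. Of these 4 genes, 0 were called by edgeR, DESeq2 or limma-voom, and 0 had an unadjusted p under 0.05 in edgeR. Of the neurotrophins and their receptors, Ntrk2, Ntrk3 and Ngfr of 6 tested genes were lower without overlap, while Bdnf had a log2 ratio of -0.24 and did not pass (edgeR adjusted p = 0.681). Over all related lists, 47 of 57 genes were tested and 13 were called, 5 lower and 8 higher, or 27.7% against the background of 10.2%. The lists were written with earlier results of these data known, so this share is no independent evidence. Without libraries ISL1CKO 2, 3 and 5, 10 of the 13 calls remained, those of Ptprd, Ptprf and Lrrn3 were lost, and Ppfia4 was added.

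Measures of other cells and of library quality were also compared between the groups. The mitochondrial share of counts was 0.845% to 1.02% in the libraries labelled ISL1CKO and 1.05% to 1.65% in controls. Mesenchyme markers, with 9 of 10 in the table, summed to 70.1 to 120 CPM and 38.3 to 84.6 CPM, and 2 of the 4 tested, Tbx18 and Col3a1, were called higher. Tbx18 averaged 39.4 CPM in the libraries labelled ISL1CKO and 1.09 CPM in controls. Pou3f4 went the other way, averaging 27.3 and 52.7 CPM, a log2 ratio of -0.95 that did not pass (edgeR adjusted p = 0.143). Col1a2, with a log2 ratio of 1.83, did not pass either (edgeR adjusted p = 0.0602). Macrophage markers summed to 0.727 to 743 CPM, with a median of 116, and to 1.48 to 357 CPM, with a median of 6.28, with 0 of 8 tested genes called, and those of Schwann cells and satellite glia to 34.7 to 260 CPM and 39.9 to 186 CPM, with 0 of 6 called. In edgeR, 0 genes of these 2 lists had an unadjusted p under 0.05. With the glial marker level as a covariate, the log2 ratios of Slitrk1 and Slitrk3 were -1.76 and -1.63 (edgeR adjusted p of 0.00114 and 0.00102). Of the 15 listed spiral ganglion neuron markers, 7 were called lower, Gata3 and Nefm among them, and 3 higher, Neurod1 among them. After centring on the group means, macrophage markers had r = 0.60 with Slitrk3 and r = 0.60 with Slitrk4 over the 12 libraries. Mesenchyme markers had r = 0.65 with Slitrk4 and r = -0.60 with Slitrk5. These r values are descriptions. The part of the mitochondrial share, the mesenchyme markers and the macrophage markers in the SLITRK differences was not tested.

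Within the groups the pairs of members differed in how they varied together. After each library's log2 CPM was centred on its group mean, Pearson's r between pairs of members over the 12 libraries ran from -0.43, for Slitrk3 and Slitrk5, to 0.43, for Slitrk3 and Slitrk4. Slitrk1 and Slitrk3, the 2 that fell, had r = 0.063 and Spearman's rho = 0.070. A second r left out the 2 libraries farthest from the median of the lower-numbered member of each pair. Libraries far out only for the other member were kept. This r ran from -0.70, for Slitrk4 and Slitrk5, to 0.61, for Slitrk3 and Slitrk4. Slitrk1 and Slitrk6 were at 0.60 and Slitrk1 and Slitrk3 at 0.054. The libraries share the same depth range and preparation, and these values are descriptive.

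By the same measure the genes most like each member were taken from the 14812 other genes tested, as a description without a test. Slitrk1 was closest to Asap1, an Arf GTPase-activating protein (r = 0.89, rho = 0.87), followed by the non-coding gene Gm10101 and by Dvl2. Slitrk3 was closest to Hmcn1, which encodes the extracellular protein hemicentin (r = 0.92, rho = 0.92), followed by Fnta and Dtnbp1. Asap1 and Hmcn1 were also lower in the libraries labelled ISL1CKO, with log2 ratios of -1.42 and -2.37 (edgeR adjusted p of 7.31e-07 and 0.0381), which the centring had removed from the likeness. Gm10101, Dvl2, Fnta and Dtnbp1 were not called (edgeR adjusted p of 0.797, 0.849, 0.196 and 0.684). Slitrk6 was closest to Nap1l4, a histone chaperone (r = 0.96, rho = 0.94), and Pphln1 was also among the closest. Slitrk2 was closest to Cep57 (r = 0.91), Slitrk4 to Zfp472 (r = 0.93) and Slitrk5 to Map6 (r = 0.90). Without the 2 libraries farthest from the member's median these 6 leading values ran from 0.76 to 0.94.

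**Figure D4:**
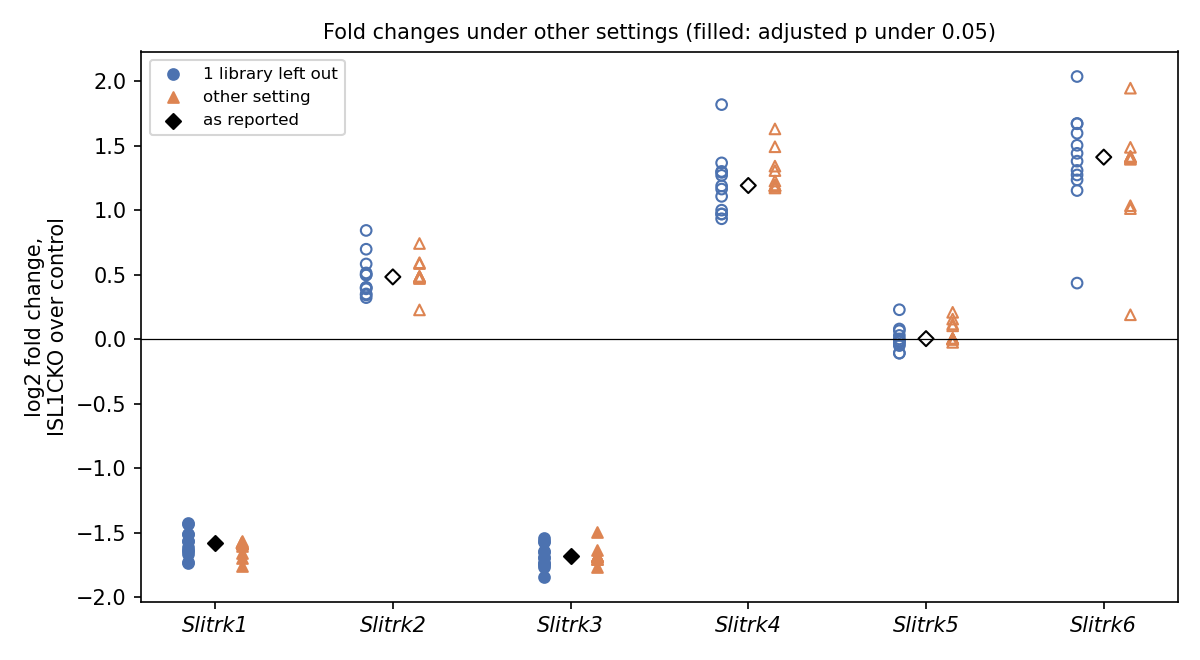
Log2 ratio of each SLITRK gene (vertical axis) as reported (black), with 1 library left out (blue, 12 values a gene) and under the other settings tried (orange, 11 values a gene). Filled marks have an adjusted p under 0.05. Slitrk1 and Slitrk3 stay between -1.84 and -1.43, Slitrk5 lies on either side of 0, and Slitrk6 runs from 0.19 to 2.04.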

How the data were processed

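RNA-seq counts per gene were analysed in 12 libraries of 100 sorted neurons each. The authors deposited 1 table of whole-number counts, not normalized, for 25674 Ensembl identifiers. Cutadapt 1.18, Bowtie 1.2.2, STAR 2.7.0c and featureCounts on GRCm38.p6 are named in the submitters' processing notes, and the strand setting and annotation release are not given in the sources used here. Each column name carried the group and number of 1 sample title. Symbols and positions came from GENCODE M21 on GRCm38, which located 25620 identifiers.

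Genes were kept by filterByExpr (minimum count 10), scaled with TMM and tested with edgeR 4.0.16 under R 4.3.3 (robust quasi-likelihood F-test, no covariate), with Benjamini-Hochberg adjustment over the 14813 genes tested and a threshold of 0.05. Standard errors are the absolute log2 fold change over the square root of F, and levels are CPM after TMM scaling. The test was run first on simulated data. Exact permutation tests used all 924 splits, for which the smallest possible p is 0.00216, on log2(CPM + 1).

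Named genes were Isl1, the 6 members, the 3 LAR-type phosphatase genes, up to 4 called genes per related list with those whose groups did not overlap, the 3 genes most like each member, and neighbours of called members. Other genes named were markers, Ppfia2, Ppfia4, Bdnf and the LRRTM genes, chosen after their values were seen. A gene that the rule would name is not reported here. The members and lists were chosen with earlier results of these data known. Replicate numbers were not read as pairs, and chi-square values per degree of freedom of 20.5 to 101 between libraries showed no library present more than once. Alternatives were other scalings, filters and tools (DESeq2 1.42.0, limma 3.58.1), covariates, a replicate block and libraries left out.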

Additional observations from a re-analysis of the deposited data

How the results depend on the processing

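Slitrk1 and Slitrk3 kept their direction under all alternatives tried, and Slitrk3 kept its call. The Slitrk1 call was lost without libraries ISL1CKO 2, 3 and 5, at a log2 ratio of -1.58 (edgeR adjusted p = 0.0540), so that the members called dropped from 2 to 1 and all genes called from 1511 to 767, with fewer samples and 16222 genes tested. With each library left out in turn, the log2 fold change ran from -1.73 to -1.43 for Slitrk1, -1.84 to -1.54 for Slitrk3, 0.32 to 0.84 for Slitrk2, 0.93 to 1.82 for Slitrk4, 0.44 to 2.04 for Slitrk6 and -0.11 to 0.23 for Slitrk5, whose sign also turned under upper quartile scaling (-0.024) and with the glial marker covariate (-0.0010). Between 1178 and 1517 genes in all, and 12 to 14 related genes, were then called, with 2 members in each case. Slitrk6 was at 0.19 with limma-voom. In the exact 2-sided permutation test the unadjusted p was 0.00433 for Slitrk1 and 0.00216, the smallest possible, for Slitrk3, and 0.0628 to 0.740 for the others.

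With the replicate number as a block, 1450 genes were called and the log2 fold changes were -1.56 for Slitrk1 and -1.70 for Slitrk3 (edgeR adjusted p of 0.0137 and 2.75e-04), and no member's call changed, while Ppfia2 was then called (edgeR adjusted p = 0.0217). The numbers were not read as pairs, since same-numbered libraries correlated at -0.056 to 0.15 in their deviations and 4 of 12 correlated best with their own number. These values cannot exclude that the numbers pair libraries by litter or batch. The DESeq2 Wald test called 2082 genes and the same 2 members. RefSeq coding lengths were not run and GENCODE coding lengths were used instead. Low counts limit Slitrk6 and Slitrk4, for which 3 and 1 libraries held 3 counts or fewer. Control 2, with 3 counts of Slitrk4, was the deepest library, at 13857480 counts.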

Other observations

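Within groups, 4 SLITRK genes varied more between libraries than most genes of similar level, Slitrk6 and Slitrk4 as well as the 2 that fell. The coefficient of variation of Slitrk6 reached 131% among libraries labelled ISL1CKO and 97.9% among controls, against medians of 41.7% and 44.4% over 1747 tested genes whose mean level lay within 1.5-fold of its own. For Slitrk4 it was 57.0% and 98.7%, against medians of 37.4% and 39.1%. Slitrk1 was at 37.5% and 36.1%, against medians of 20.6% and 21.6%, and Slitrk3 at 34.8% and 30.6%, against 19.1% and 19.7%. Slitrk2 was uneven in controls alone, at 72.6% against a median of 26.7%, and at 25.3% against 25.6% in the libraries labelled ISL1CKO. Slitrk5 was more even in the libraries labelled ISL1CKO, at 13.7%, than in controls, at 43.7%. These differences in spread were not tested.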
